A study of Homo sapiens with 16 samples.

Results

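FOLH1, ACKR3, OPRK1 and DDC, a group known to be androgen-repressed in prostate cancer cells, were followed on 16 arrays. They are 4 of the 18849 genes named on one version of the array and of the 20046 named on the other. All probes annotated to the 4 symbols were taken, with ACKR3 also looked for under its older name CXCR7. This gave 5 probes of 48794 in one set of arrays and 5 of 47231 in the other: ILMN_1681651 and ILMN_1735115 for FOLH1, and 1 probe for each of the other genes. The arrays hold RNA of LNCaP-1F5, a derivative of the human prostate cancer line LNCaP into which a rat glucocorticoid receptor was introduced.

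The DHT set, on 8 HumanHT-12 arrays of version 3, has 4 title groups of 2 arrays: vehicle parental, DHT parental, vehicle siFoxA1 and DHT siFoxA1. Version 4 of the array holds the 4 groups of the DEX set, which have the same titles with DEX in place of DHT. Titles with siFoxA1 stand for cells given a pool of siRNAs against FOXA1 messenger RNA, and parental for cells without it; a non-targeting siRNA is not named for them. All cells spent 3 days in charcoal-stripped medium, which holds little steroid, before 24 hours with vehicle, the androgen 5α-dihydrotestosterone (DHT, 100 nM) or the synthetic glucocorticoid dexamethasone (DEX, 100 nM). The study calls its replicates 1 and 2 biological duplicates. Levels below are log2 intensities normalised within a set, where a step of 1 is a doubling, and are comparable between arrays of a set but not between sets or between probes.

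The androgen receptor is a steroid-activated transcription factor that raises some genes and lowers others, and FOXA1 is a forkhead protein that opens chromatin for it. FOLH1 encodes prostate-specific membrane antigen (PSMA), a cell-surface carboxypeptidase that removes glutamate from folates and from a neuropeptide. It is used as an imaging and therapy target in prostate cancer, and its expression is known to go up when androgen is withdrawn. ACKR3 encodes an atypical receptor that takes up the chemokine CXCL12 without coupling to G proteins. OPRK1 encodes the kappa opioid receptor, and DDC encodes aromatic L-amino acid decarboxylase, which makes dopamine and serotonin from their amino acid precursors.

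The 2 array sets gave different depth: a detection p under 0.01 was reached by 23.0% to 26.4% of probes per array in the DHT set, and by 33.7% to 36.3% on arrays of the DEX set. The luminal epithelial markers named on the arrays passed the detection filter, 8 of 8 in both sets, among them KRT8, EPCAM, HOXB13 and KLK3. Of basal markers 0 of 3 and 1 of 3 passed, of neuroendocrine markers 1 of 7 in each set (ENO2), of fibroblast markers 0 of 5 and 1 of 5, of blood markers 0 of 4 and 1 of 4, and of endothelial markers 1 of 4 and 0 of 4. KRT5, KRT14, CHGA, SYP, PTPRC and PECAM1 were not detected often enough in either set. In total RNA, fewer cells of a kind and less RNA per cell cannot be told apart.

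FOXA1 itself, the targeted gene, went against the titles. In the DHT set the FOXA1 level was 13.54 and 13.61 on the vehicle parental arrays, 12.24 and 12.25 on the DHT parental arrays, 13.57 and 13.68 on the vehicle siFoxA1 arrays and 12.28 and 12.37 on the DHT siFoxA1 arrays. It was thus low on the 4 arrays with DHT in the title and was not lower on those titled siFoxA1. FKBP5, a chaperone gene known to be induced by both androgens and glucocorticoids, was at 7.76 to 8.22 on the 4 replicate 1 arrays of this set and at 12.14 to 13.16 on the 4 replicate 2 arrays.

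FOXA1 on the DEX set's arrays read 13.36 and 12.09 on the vehicle parental arrays, 13.37 and 12.17 on the DEX parental arrays, 12.65 and 10.84 on the vehicle siFoxA1 arrays and 12.67 and 10.84 on the DEX siFoxA1 arrays, with replicate 1 given first. Here it was lower on each replicate 2 array than on its partner, and lower on each siFoxA1 array than on the parental array of the same replicate number. There FKBP5 was at 9.21 to 9.39 on the 4 arrays titled parental and at 13.80 to 13.89 on the 4 titled siFoxA1. No array was moved to another group, every difference below is between arrays as labelled, and the replicate number is therefore described as a factor of its own beside the hormone and siFoxA1 titles.

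**Figure D1:**
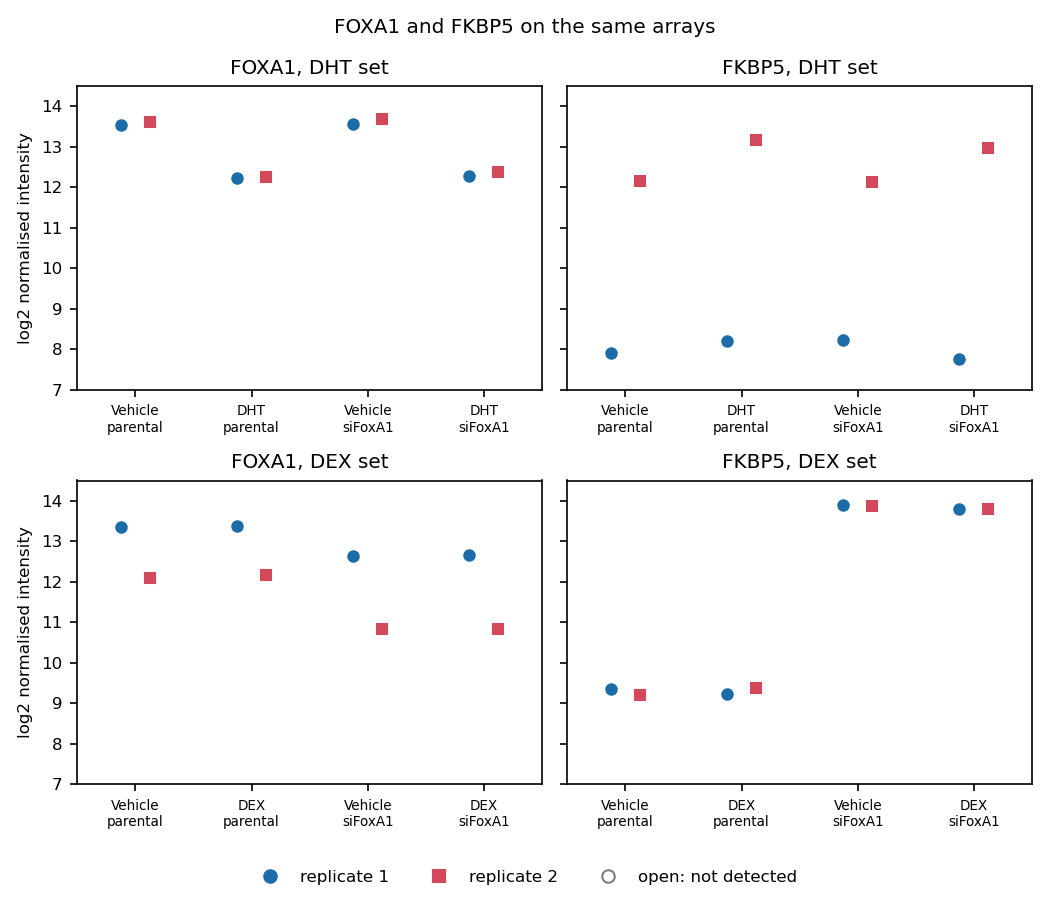
Levels of FOXA1 and FKBP5 (log2 normalised intensity, vertical) on each array by title group (horizontal), for the DHT set (top) and the DEX set (bottom). Each point is 1 array; circles are replicate 1 and squares replicate 2. FKBP5 parts the replicate numbers in the DHT set and the siFoxA1 titles in the DEX set.

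FOLH1 was lower on replicate 2 than on replicate 1 arrays of the DHT set, and lower under the siFoxA1 titles of the DEX set. In the DHT set, probe ILMN_1681651 read 9.74 and 9.10 on the vehicle parental arrays, 9.68 and 8.47 on the DHT parental arrays, 9.58 and 8.60 on the vehicle siFoxA1 arrays and 9.08 and 8.07 on the DHT siFoxA1 arrays. Probe ILMN_1735115, annotated to another FOLH1 transcript, read 10.59 and 10.25, 10.65 and 9.73, 10.57 and 9.79, and 10.50 and 9.45 on the same arrays. In all 4 title groups the second array was the lower one for both probes. The 4 arrays of each number did not overlap for ILMN_1735115, and for ILMN_1681651 they overlapped narrowly, between 9.08 and 9.10.

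Replicate 2 minus replicate 1 was -0.96 ± 0.13 (SE, 4 pairs) for ILMN_1681651, a 1.95-fold lower signal (adjusted p = 0.000795 by limma). It was -0.77 ± 0.13 for ILMN_1735115 (adjusted p = 0.00317). Both probes thus gave the lower level on the arrays with high FKBP5, whose part in it was not tested. The difference did not pass the test of dependence on the hormone title for either probe (adjusted p = 0.558 and 0.254). By hormone title, DHT minus vehicle was -0.34 and -0.52 for the first probe and -0.23 and -0.20 for the second in parental-titled and siFoxA1-titled arrays, with adjusted p of 0.719 to 0.886.

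In the DEX set the FOLH1 pattern lay along the siFoxA1 title. ILMN_1681651 read 11.00 and 10.87 on the vehicle parental arrays, 10.85 and 10.63 on the DEX parental arrays, 10.00 and 9.79 on the vehicle siFoxA1 arrays and 10.06 and 9.58 on the DEX siFoxA1 arrays. ILMN_1735115 read 10.65 and 10.67, 10.75 and 10.83, 9.69 and 9.82, and 9.80 and 9.27. For both probes the 4 siFoxA1-titled arrays lay below all 4 parental-titled arrays; the same 4 arrays had high FKBP5 and, within each replicate number, lower FOXA1, and the part of either in the FOLH1 level was not tested.

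The siFoxA1 minus parental difference of ILMN_1681651 was -1.05 ± 0.20 with vehicle (2.06-fold lower, adjusted p = 0.0396) and -0.92 ± 0.20 with DEX (adjusted p = 0.0627). For ILMN_1735115 it was -0.90 ± 0.20 with vehicle (adjusted p = 0.0621) and -1.25 ± 0.20 with DEX (adjusted p = 0.0188). Each probe passed in 1 of the 2 contrasts. With the replicate number as a term all 4 differences passed, with adjusted p of 0.000215, 0.000618, 0.00253 and 0.000248 in that order. The call of ILMN_1681651 with vehicle was lost without any 1 of 6 arrays, namely both vehicle parental, both DEX parental and both vehicle siFoxA1 arrays (adjusted p up to 0.247), and under median scaling (adjusted p = 0.0715). That of ILMN_1735115 with DEX was lost without either DEX parental array or without replicate 2 of DEX siFoxA1 (adjusted p up to 0.114).

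FOLH1B, a near-identical relative of FOLH1, was detected on 0 of 8 arrays of the DHT set and on 7 of 8 in the DEX set. Its siFoxA1 minus parental difference was -0.94 ± 0.35 with vehicle (adjusted p = 0.229) and -0.16 ± 0.35 with DEX (adjusted p = 0.863), and neither passed with the replicate number as a term (adjusted p = 0.0650 and 0.784). Whether the FOLH1 probes also bind its transcript was not analysed here. By replicate number the FOLH1 probes of the DEX set differed by -0.26 (adjusted p = 0.0767) and -0.08 (adjusted p = 0.702); under median scaling the first was -0.35 and passed (adjusted p = 0.0215).

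**Figure D2:**
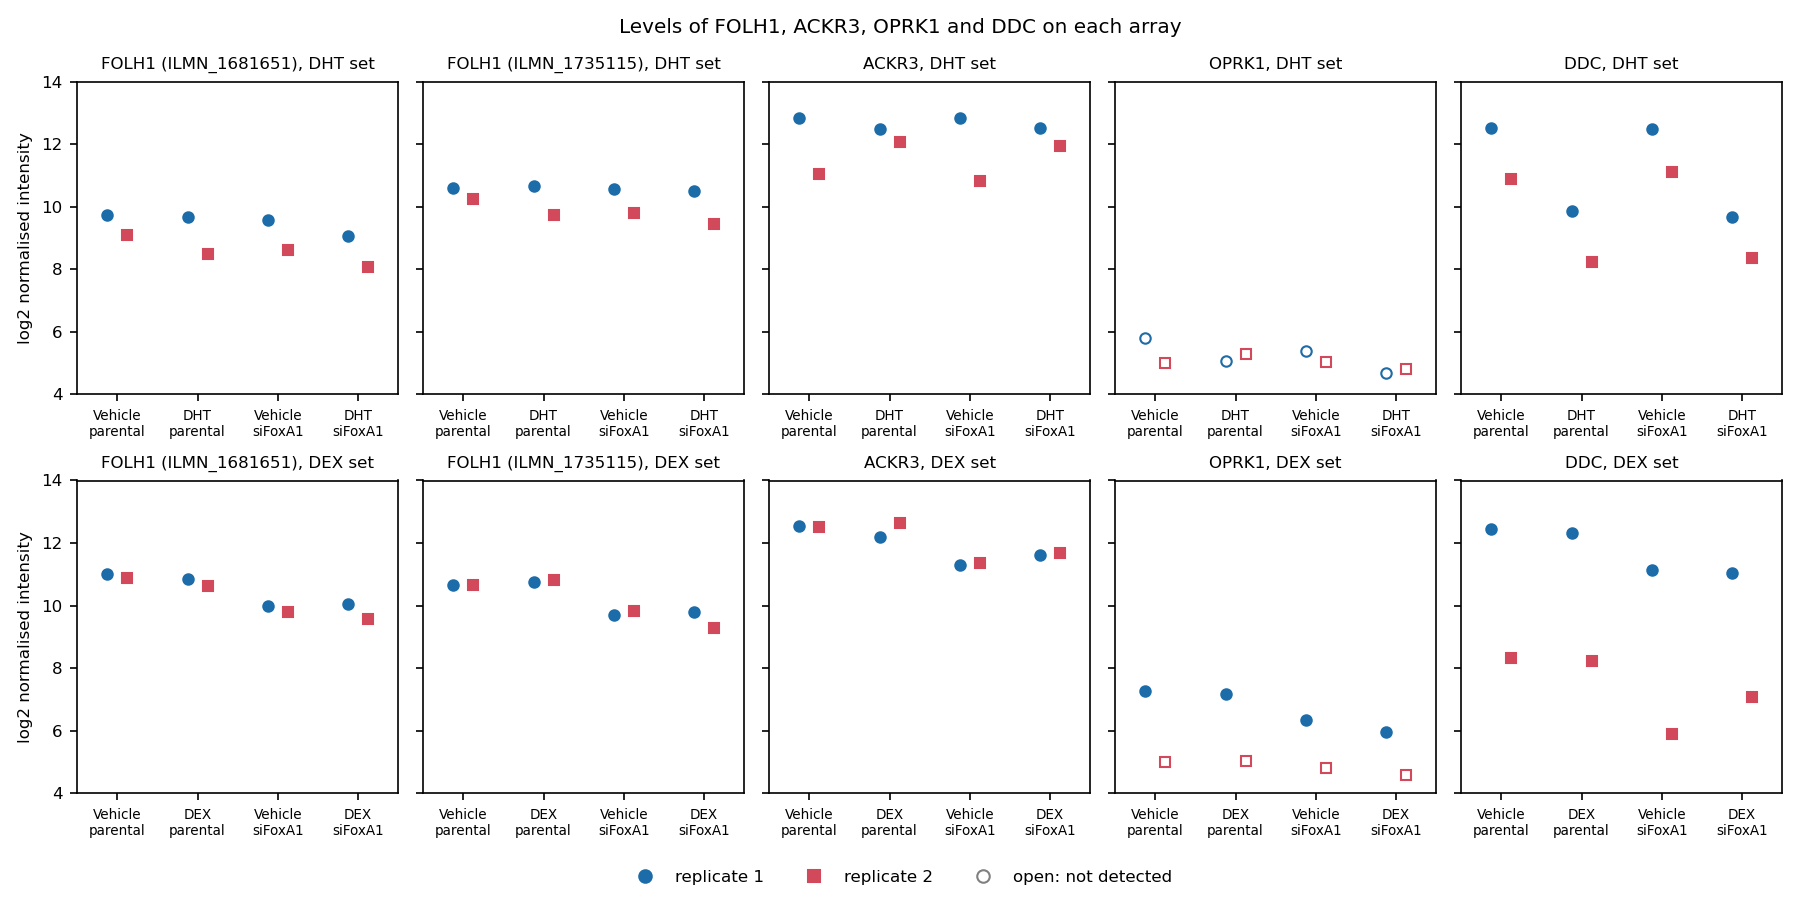
Level of each probe (log2 normalised intensity, vertical) on every array by title group (horizontal), DHT set on top and DEX set below. Circles are replicate 1 and squares replicate 2; open symbols mark arrays where the probe was not detected. FOLH1 and ACKR3 step down at the siFoxA1 titles of the DEX set, and DDC and OPRK1 part the replicate numbers there.

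The replicate difference of ACKR3 in the DHT set depended on the hormone title. ACKR3 read 12.83 and 11.04 on the vehicle parental arrays, 12.50 and 12.08 on the DHT parental arrays, 12.83 and 10.81 on the vehicle siFoxA1 arrays and 12.51 and 11.94 on the DHT siFoxA1 arrays. The 4 replicate 1 arrays stayed within 12.50 to 12.83, above all 4 replicate 2 arrays. Among replicate 2 arrays, the pair titled vehicle was lower than the pair titled DHT.

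Replicate 2 minus replicate 1 was -1.20 ± 0.23 over the 4 pairs (2.30-fold lower, adjusted p = 0.00629). It was -1.79 and -2.02 within the vehicle titles and -0.42 and -0.57 within the DHT titles. The difference between these was 1.41 ± 0.16 (adjusted p = 2.14e-06, the interaction of replicate number and hormone title). FOXA1 was the lower of its 2 levels on the DHT-titled arrays, where ACKR3 differed less; the part of FOXA1 in this was not tested. By hormone title alone, ACKR3 differed by 0.35 and 0.40 (adjusted p = 0.885 and 0.859), means over pairs of opposite sign. DHT minus vehicle was -0.33 and -0.32 within replicate 1, and 1.04 and 1.12 within replicate 2.

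On the arrays with DEX titles and their vehicle partners ACKR3 read 12.53 and 12.52 on the vehicle parental arrays, 12.19 and 12.65 on the DEX parental arrays, 11.30 and 11.37 on the vehicle siFoxA1 arrays and 11.62 and 11.68 on the DEX siFoxA1 arrays. All 4 siFoxA1-titled arrays lay below the 4 parental-titled ones. The difference was -1.19 ± 0.17 with vehicle (2.29-fold lower, adjusted p = 0.00975) and -0.77 ± 0.17 with DEX (adjusted p = 0.0593). With the replicate number as a term both passed (adjusted p = 4.24e-05 and 0.00145), and without that term the call with vehicle was lost when any of the 4 compared arrays was left out (adjusted p up to 0.0789). Replicate numbers differed by 0.14 (adjusted p = 0.308), which did not pass.

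OPRK1 was detected on 4 of the 16 arrays. In the DHT set its readings of 4.67 to 5.81 were not above background on any of the 8 arrays, so no difference was tested. In the DEX set it read 7.26 and 4.99 on the vehicle parental arrays, 7.17 and 5.02 on the DEX parental arrays, 6.34 and 4.80 on the vehicle siFoxA1 arrays and 5.95 and 4.58 on the DEX siFoxA1 arrays. The 4 replicate 1 arrays were the detected ones, and all 4 replicate 2 arrays were below them and not detected.

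On the mean of the 4 arrays of each number, replicate 2 of the DEX set was therefore at least 1.96-fold lower in OPRK1. This bound sets the replicate 1 mean of 6.68 against the mean detection limit of the replicate 2 arrays, 5.71. It does not hold for each pair: with DEX siFoxA1, replicate 1 read 5.95 and the limit of replicate 2 was 5.77. The fitted difference of measured values was -1.83 ± 0.25 (adjusted p = 0.000173). OPRK1 was detected through its replicate 1 arrays alone, so this difference had to appear once the probe passed the filter. Within replicate 1, OPRK1 was lower on the siFoxA1-titled arrays by 0.92 and 1.22, and the fitted siFoxA1 minus parental differences did not pass (adjusted p = 0.827 and 0.728; 0.308 and 0.122 with the replicate number as a term).

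DDC differed most between arrays of the 4 genes, and its levels moved along the hormone title in the DHT set and along the replicate number in both sets. In the DHT set it read 12.52 and 10.88 on the vehicle parental arrays, 9.88 and 8.23 on the DHT parental arrays, 12.48 and 11.11 on the vehicle siFoxA1 arrays and 9.66 and 8.37 on the DHT siFoxA1 arrays. All 4 DHT-titled arrays lay below all 4 vehicle-titled arrays, and within each title group replicate 2 was lower. DHT minus vehicle was -2.65 ± 0.77 in parental-titled and -2.78 ± 0.77 in siFoxA1-titled arrays, 6.26-fold and 6.88-fold lower, which did not pass without the replicate number (adjusted p = 0.219 and 0.181). With the replicate number as a term both passed (adjusted p = 3.27e-06 and 2.25e-06). The 4 single pairs were lower by 2.64 to 2.82, on arrays where FOXA1 was also lower by 1.29 to 1.35.

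Replicate 2 minus replicate 1 of DDC in the DHT set was -1.49 ± 0.11 (2.80-fold lower, adjusted p = 1.21e-05), and it was between -1.65 and -1.29 in each of the 4 groups. The test of its dependence on the hormone title gave 0.04 ± 0.20 (adjusted p = 0.954). By siFoxA1 title the differences were 0.10 and -0.04 and did not pass.

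DDC on the DEX set's arrays read 12.45 and 8.34 on the vehicle parental arrays, 12.33 and 8.23 on the DEX parental arrays, 11.14 and 5.90 on the vehicle siFoxA1 arrays and 11.05 and 7.09 on the DEX siFoxA1 arrays. The 4 replicate 2 arrays lay far below the 4 replicate 1 arrays. Replicate 2 minus replicate 1 was -4.35 ± 0.18, 20.5-fold lower (adjusted p = 7.04e-09), on arrays where FOXA1 differed by -1.53 ± 0.11 (adjusted p = 1.10e-06) and FKBP5 by 0.00. By siFoxA1 title DDC differed by -1.87 with vehicle and -1.21 with DEX, which did not pass as the groups stand (adjusted p = 0.724 and 0.835) and passed with the replicate number as a term (adjusted p = 0.000225 and 0.00501). The dependence of the replicate difference on the siFoxA1 title was -0.49 ± 0.31 (adjusted p = 0.473). Without replicate 2 of DEX siFoxA1 it was -1.14. That value rests on replicate 2 of vehicle siFoxA1 alone for its side, where DDC at 5.90 was near the detection limit of 5.59.

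**Figure D3:**
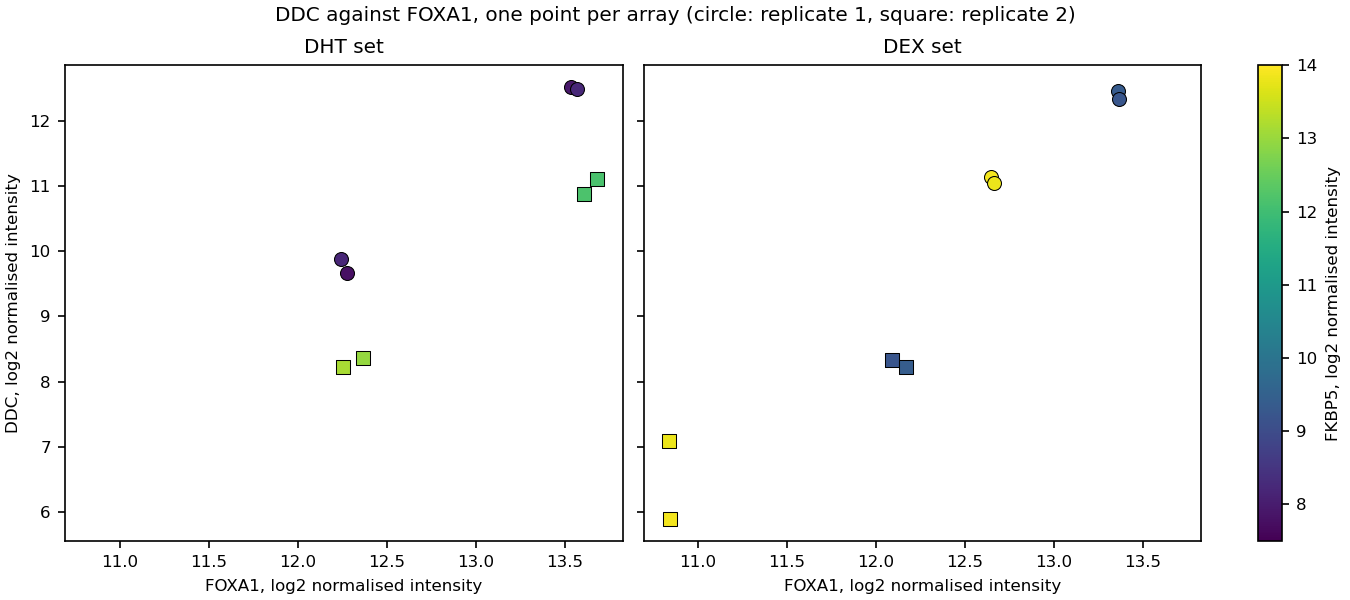
DDC level against FOXA1 level (both log2 normalised intensity), 1 point per array, with colour for the FKBP5 level on the same scale. Arrays of a set fall into pairs, and DDC is lower where FOXA1 is lower and, at a like FOXA1 level in the DHT set, lower where FKBP5 is higher.

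DDC is the member for which RefSeq promoter sequence was at hand, and it is shown because its level went with that of a forkhead factor. The 250 bases before each of its 2 RefSeq starts (GRCh38.p14, minus strand) are printed 5′ to 3′, with capitals for any match to the forkhead core spelled TGTTTAC, or with the second base changed TATTTAC, or with the sixth base changed TGTTTGC, or with both changed TATTTGC, and for any match to the steroid receptor half-site AGAACA, on either strand. The 4 spellings cannot match the same bases.
DDC upstream start, chr7:50565406-50565655: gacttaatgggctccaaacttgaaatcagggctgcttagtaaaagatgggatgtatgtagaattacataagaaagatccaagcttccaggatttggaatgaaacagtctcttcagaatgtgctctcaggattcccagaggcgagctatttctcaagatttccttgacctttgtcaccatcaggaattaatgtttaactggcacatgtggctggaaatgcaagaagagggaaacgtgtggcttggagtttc
DDC downstream start, chr7:50561072-50561321: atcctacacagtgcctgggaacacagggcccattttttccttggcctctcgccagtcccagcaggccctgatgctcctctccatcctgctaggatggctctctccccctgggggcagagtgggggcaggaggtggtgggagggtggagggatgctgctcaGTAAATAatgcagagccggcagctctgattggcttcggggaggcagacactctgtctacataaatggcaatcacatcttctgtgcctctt
The first window holds 0 matches and the second 1, GTAAATA, the reverse complement of TATTTAC, which begins 90 bases before the start. Of 35116 RefSeq windows of this length, 10.6% hold at least 1 of the 4 spellings, 2.39% hold TATTTAC and 12.4% hold the half-site. A match of letters is no evidence of binding.

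By replicate number, 4 of 4 tested member probes were called lower on replicate 2 of the DHT set (median -1.08), where 6.68% of all 13094 tested probes were called lower. In the DEX set 2 of 5 were (DDC, and OPRK1, whose detection fixed the direction), against 11.6% of 18391. The interaction with the hormone title was called for 1 of 4 probes in the DHT set against 6.17% of all, and that with the siFoxA1 title for 0 of 5 in the DEX set against 3.7%.

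By hormone title, 0 of 4 member probes were called in the DHT set, against 0.634% of all probes in parental-titled and 0.802% in siFoxA1-titled arrays. With the replicate number as a term 1 of 4 was called lower in each (DDC), against 4.06% and 4.39%. For DEX 0 of 5 were called in either contrast, as were 0% of all probes. By siFoxA1 title 0 of 4 were called in the DHT set, again beside 0% of all probes in both contrasts.

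Within the DEX set 2 of 5 were called lower by siFoxA1 title with vehicle and 1 of 5 with DEX, against 0.495% and 0.43% of all probes. With the replicate number as a term 4 of 5 were called lower in each, against 9.93% and 9.64%. Of arrays split 4 against 4, the replicate numbers did not overlap for 2 of 4 member probes of the DHT arrays (12.2% of all probes) and for 2 of 5 of the DEX arrays (15.7%), OPRK1 again being 1 of them. The hormone titles did not overlap for 1 of 4 in the DHT set (17% of all) and the siFoxA1 titles for 3 of 5 in the DEX set (24.6%).

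**Figure D4:**
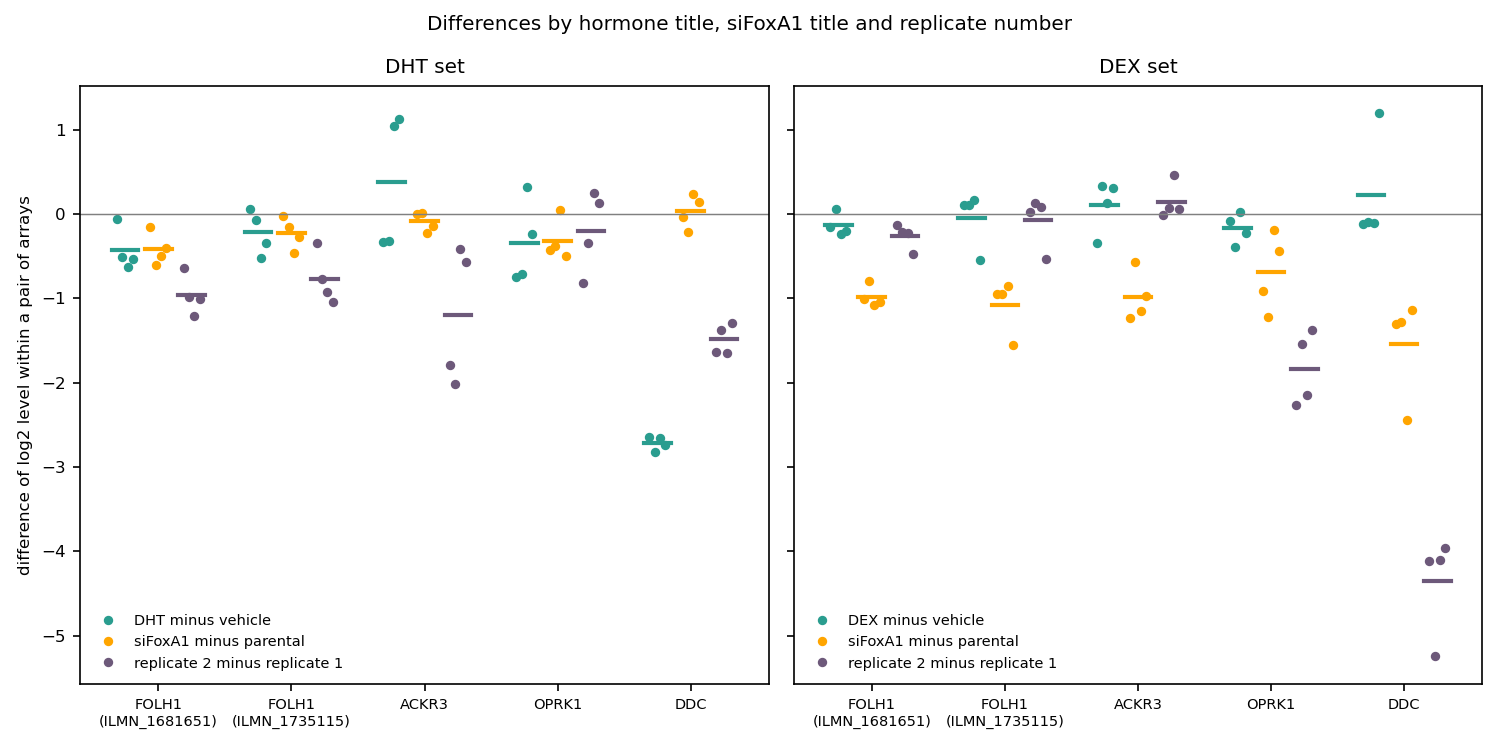
Differences of log2 level (vertical) for each member probe (horizontal) within the 4 pairs of arrays that differ in 1 factor alone: hormone title, siFoxA1 title or replicate number. Each point is 1 pair and the bar is the mean of 4. DDC pairs lie at -2.82 to -2.64 by DHT title, and at -5.24 to -3.96 by replicate number in the DEX set.

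Other genes known as androgen-repressed did not all go with the 4 members. In the DHT set 4 of 8 measured genes were lower on replicate 2 and 0 higher, against 6.68% of all probes called lower. The median of the 8 was -0.94 beside -0.02 over all probes. UGT2B17 and UGT2B15, which add glucuronic acid to androgens, fell by 2.26 and 1.95, and CAMK2N1, a kinase inhibitor, fell by 1.99. Of 15 measured androgen-induced genes 15 were higher (median 1.62), against 6.21% of all probes called higher, with FKBP5 up by 4.58, PMEPA1 by 3.20 and ELL2 by 2.71.

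By replicate number in the DEX set, the androgen-repressed list split, with 4 of 9 lower and 2 higher. Of all probes, 11.6% were called lower and 9.88% higher. UGT2B17 fell by 4.20 and UGT2B15 by 3.13, while CAMK2N1 rose by 1.43. By siFoxA1 title with vehicle 0 of 9 androgen-repressed genes were called, and 4 of 16 androgen-induced genes were higher. Of all probes, 2.53% were called higher and 0.495% lower. FKBP5 rose by 4.61, TSC22D3 by 2.52 and ELL2 by 3.98. With DEX it was again 0 of 9 and 4 of 16, against 2.47% of all probes called higher and 0.43% lower.

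The replicate number as a term changed these counts. By siFoxA1 title in the DEX set, 2 of 9 androgen-repressed genes were then higher and 2 lower with vehicle, and 2 higher and 3 lower with DEX. Of all probes, 8.93% and 8.64% were called higher and 9.93% and 9.64% lower. CAMK2N1 was 2.22-fold and 2.50-fold lower and UGT2B17 2.82-fold and 2.66-fold lower in the 2 contrasts (adjusted p of 2.04e-05 to 0.00149), the same direction as FOLH1 and ACKR3, while AKR1C3, a steroid-reducing enzyme, rose by 1.48 with vehicle and SESN1, a stress-response gene, rose by 1.32 with DEX. Androgen-induced genes were 7 higher and 1 lower of 16 with vehicle, and 6 higher and 2 lower with DEX.

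By DHT title 0 of 8 androgen-repressed and 0 of 15 androgen-induced genes were called without the replicate number, against 0.634% and 0.802% of all probes. With the number as a term 2 of 8 androgen-repressed genes were higher and 2 lower in both parental-titled and siFoxA1-titled arrays. Of all probes, 3.38% and 3.53% were then called higher and 4.06% and 4.39% lower. UGT2B17 differed by -2.88 and -3.16, in the direction of DDC, and CAMK2N1 rose by 3.15 and 2.81. Androgen-induced genes were 2 higher and 3 lower of 15 in parental-titled arrays and 4 higher and 3 lower in siFoxA1-titled arrays.

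**Figure D5:**
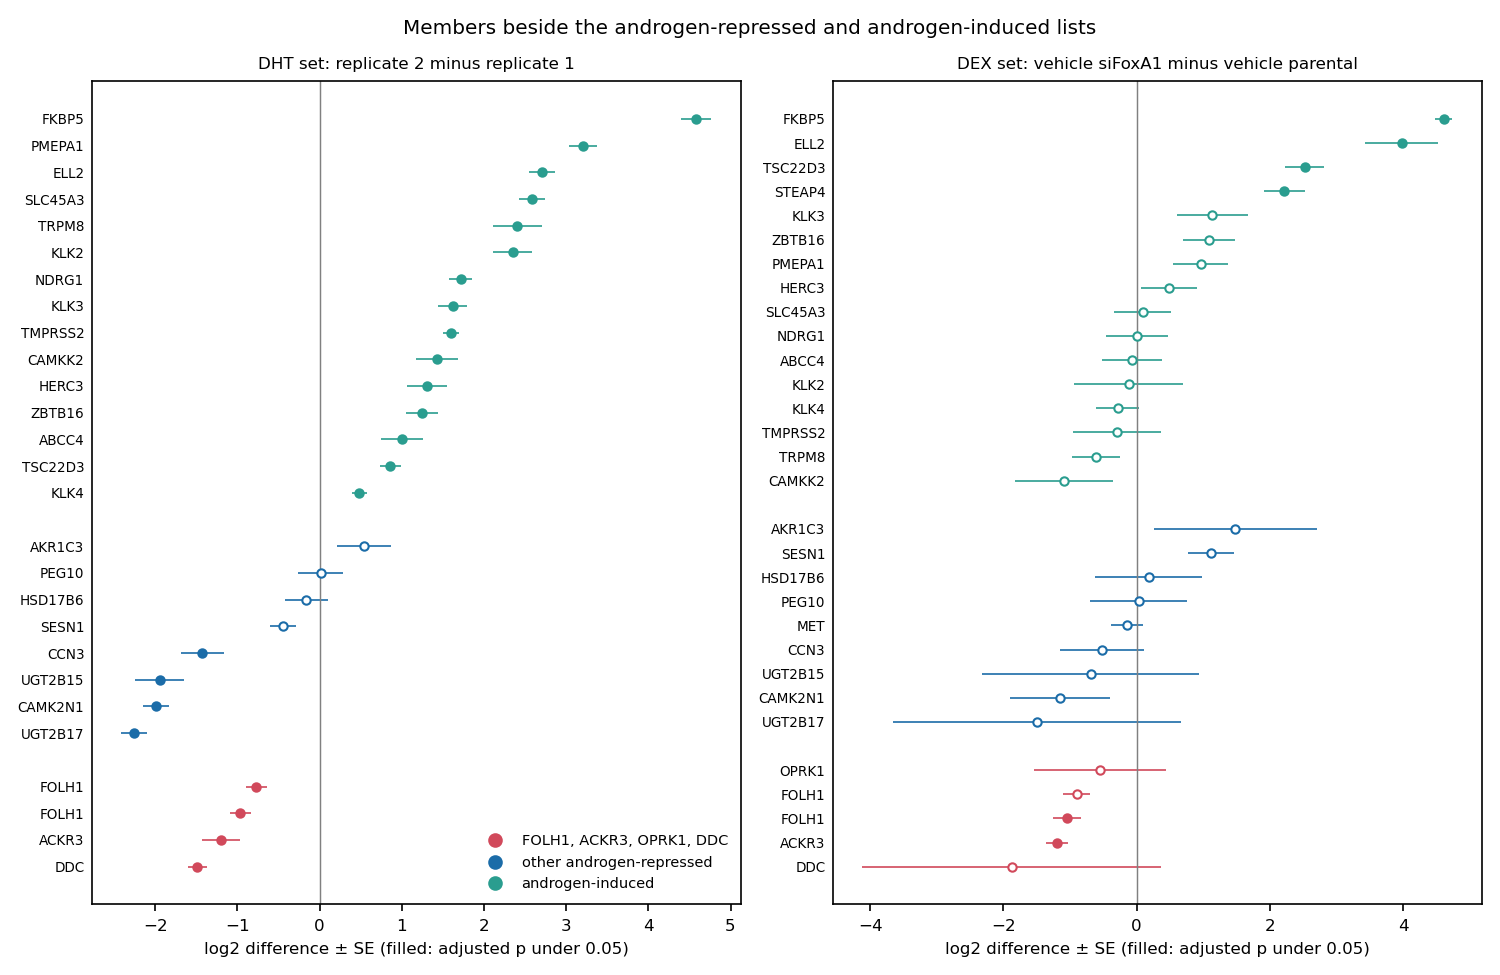
Differences (log2, with SE, horizontal) of the members (red), other androgen-repressed genes (blue) and androgen-induced genes (green), by replicate number in the DHT set and by siFoxA1 title with vehicle in the DEX set. Filled points passed at an adjusted p under 0.05. All 15 androgen-induced genes lie right of 0 on the left.

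Genes that work beside the members were mostly below detection. Around FOLH1, folate and glutamate carboxypeptidase genes passed detection for 4 of 11 in the DHT set, and 7 of 11 on the other arrays. By replicate number 0 of 4 were called in the first, and in the second GGH, which trims folate polyglutamates, fell by 0.96, SLC19A1, a folate carrier, fell by 0.63 and NAALAD2, another glutamate carboxypeptidase, rose by 0.66. Around ACKR3, the ligands CXCL12 and CXCL11 and the receptor CXCR4 were not detected often enough in either set. ACKR2, another atypical chemokine receptor, fell by 1.03 by replicate number in the DEX set (adjusted p = 0.0475). Of the 4 genes of this list kept in that set, 3 were detected on every array and the remaining gene on 4 arrays. If that gene was ACKR2, detected on replicate 1 arrays alone, the filter fixed the direction of its fall, which was not tested. By siFoxA1 title there, 1 probe of ARRB1, an arrestin gene, differed by -0.66 and -0.77 and GRK2, a receptor kinase gene, by -0.63 and -0.58 with vehicle and with DEX, passing only with the replicate number as a term; another ARRB1 probe gave 0.08 with vehicle.

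Around OPRK1, the peptide precursors PDYN and POMC and the receptors OPRM1 and OPRD1 were not detected often enough. OPRL1, the nociceptin receptor, fell by 0.72 and GNAI2, a G protein subunit, rose by 0.36 on replicate 2 of the DEX set. By siFoxA1 title in that set, and only with the replicate number as a term, OPRL1 rose by 1.59 with vehicle and 1.47 with DEX (adjusted p = 4.42e-05 and 9.34e-05), and GNAI2 fell by 0.50 with vehicle (adjusted p = 0.0263). Around DDC, the genes of the hydroxylases TH, TPH1 and TPH2 that act before it were not detected often enough, and neither was DBH. MAOA, which breaks monoamines down, rose by 0.54 and 0.38 on the replicate 2 arrays of both sets, and GCH1, which makes the hydroxylases' cofactor, rose by 1.18 in the latter. SLC6A3, the dopamine transporter, rose by 3.94 with vehicle and 3.77 with DEX by siFoxA1 title in the DEX set (adjusted p = 0.00102 and 0.00129). Of the 3 monoamine genes kept in that set, 2 were detected on every array and the remaining gene on 4 arrays. In the DHT set GCH1 and MAOA were the 2 kept genes, both detected on all 8 arrays, and SLC6A3 was not kept. If the gene detected on 4 arrays was SLC6A3, on its siFoxA1-titled arrays alone, the filter fixed the direction of its rise, as for OPRK1. Whether this was so was not tested, so nothing is drawn from its adjusted p.

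The genes whose levels ran most like each member were named by Pearson's r of log2 level with the member's brightest probe over the 8 arrays of a set, among 11275 to 11276 probes of the DHT set and 14514 to 14515 of the DEX set. For FOLH1 they were ABCG1 (r = 0.993), MANEA (0.981) and KAZALD1 (0.979) in the DHT set, and SNORC (0.996), TACR2 (0.994) and SPATA2L (0.989) in the DEX set. For ACKR3 they were PTPRE (0.981), FBXO15 (0.980) and ARL6IP5 (0.979), and BROX (0.980), SMIM11 (0.979) and IRF2BPL (0.978). Some of these genes reached the floor. The lowest readings were 4.77 for ABCG1, 5.54 for MANEA and 5.42 for KAZALD1, under 5.80, the lowest level detected on any DHT set array. They were 5.48 for SNORC, 5.06 for TACR2 and 5.45 for BROX, under the 5.56 of the DEX set. The other genes named for FOLH1 and ACKR3 stayed above these levels. The 8 arrays of a set fall into pairs, so they are not 8 independent values. The part of this pairing in the high r was not tested.

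For DDC the likest were ACP3 (0.993), ITGB1BP1 (0.993) and SMUG1 (0.992) in the DHT set, and FOXM1 (0.997), ZIC2 (0.996) and DIO1 (0.996) in the DEX set. FOXM1 and DIO1 also reached the floor, with lowest readings of 4.82 and 5.44. For OPRK1 in the DEX set the likest were SLK (0.993), NVL (0.992) and GNG5 (0.991), over arrays of which those of replicate 2 did not detect OPRK1. ACP3, which encodes prostatic acid phosphatase, is a luminal marker that itself fell by 4.42 on replicate 2 of the DEX set and by 1.35 on replicate 2 of the DHT set. Of the 8 luminal markers, 5 were higher and 1 lower on replicate 2 in the DHT set, against 6.21% and 6.68% of all probes. It was 5 higher and 2 lower in the DEX set, against 9.88% and 11.6%.

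Luminal markers also differed by title where members did, mostly with the replicate number as a term. By DHT title 4 of 8 were then higher and 1 lower in parental-titled arrays, and 3 higher and 1 lower in siFoxA1-titled arrays. Of all probes, 3.38% and 3.53% were called higher and 4.06% and 4.39% lower. ACP3 differed by -2.87 and -2.77, and KLK2 by 1.84 and 1.65. By siFoxA1 title in the DEX set 2 were higher and 2 lower with vehicle and 1 higher and 2 lower with DEX. Of all probes, 8.93% and 8.64% were called higher and 9.93% and 9.64% lower. There KRT8 rose by 1.95 and 1.85, ACP3 differed by -1.56 and -1.55 and HOXB13 by -0.72 and -0.83. Without that term 1 of 8 was higher with vehicle (KRT8), against 2.53% of all probes. With DEX 1 of 8 was lower (HOXB13), against 0.43%. The part of these in the members' differences was not tested.

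The members' r with FOXA1 and FKBP5 over the 8 arrays of a set was as follows, by each member's brightest probe. For FOLH1 the probe differed between sets, ILMN_1735115 in the DHT set and ILMN_1681651 in the DEX set. With FOXA1, DDC had r of 0.85 in the DHT set and 0.96 with the DEX arrays, OPRK1 had 0.91 in the DEX set, FOLH1 had 0.19 and 0.73, and ACKR3 had -0.32 and 0.41. With FKBP5, FOLH1 had r of -0.91 and -0.95, ACKR3 had -0.74 and -0.95, DDC had -0.55 and -0.33, and OPRK1 had -0.34 in the DEX set. The r of OPRK1 include its replicate 2 readings, all below detection, and so reflect the split by replicate number that the filter fixed. They are not to be set beside those of the other members.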

How the data were processed

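Mean bead intensity and a detection p-value per probe were deposited as exported from BeadStudio, per the file headers without background removal or normalisation. The authors' deposited table of intensity per set, with 33.4% and 29.2% of values below 0, was made by a method not given in the sources used here and served as an alternative and for probe names. Scanner rows carry addresses only, so they were joined to the authors' rows by their ranks over the 8 arrays of a set (48794 and 47231 rows joined 1 to 1). Probes were assigned to genes by the platform annotation. Gene names are the RefSeq symbols of the annotated gene identifiers, or the platform's symbol where RefSeq gave none.

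Intensities were background-corrected, quantile normalised within a set and log2 transformed by limma neqc (limma 3.58.1, R 4.3.3, offset 16). Probes detected at p under 0.01 on at least 2 of 8 arrays were tested (13094 and 18391). Models of 4 group means, with or without the replicate number, were fitted per set with lmFit and eBayes. The interaction of replicate number and a title was fitted with the remaining title as a covariate. Tests were two-sided, with Benjamini-Hochberg adjustment of p-values over every tested probe. A probe was called at an adjusted p under 0.05. Arrays of a set share 1 chip, so no chip effect could be fitted. The fits were tested on simulated data.

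Same-numbered arrays deviated together from their group means (r of 0.41 to 0.71 over pairs of groups for DHT, 0.49 to 0.68 for DEX), so the numbers were taken to pair the arrays. In each set 8 of 8 arrays correlated best with an array of their own replicate number, and 0 with their own title group. In the DHT set the nearest array shared the hormone title for 8 of 8 arrays and the siFoxA1 title for 0. In the DEX set it shared the siFoxA1 title for 8 of 8 and the hormone title for 0. Members, lists, tests and alternatives were chosen with earlier results of these data known. Lists covered other androgen-repressed, androgen-induced, folate and glutamate carboxypeptidase, CXCL12 axis, opioid system and monoamine genes, and luminal, basal, neuroendocrine, fibroblast, blood and endothelial markers. From each list at most the 3 called genes with the largest moderated statistic were named, each by its brightest probe. Alternatives were no background correction, median scaling, the authors' table floored at 16, detection on all 8 arrays, 1 probe per gene, the replicate block and leaving out each array. A gene that is withheld is not reported here.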

Additional observations from a re-analysis of the deposited data

Results flagged for a closer look

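The effect of the replicate number on ACKR3 in the DHT set differed between hormone titles by 1.41 ± 0.16 on the log2 scale (adjusted p = 2.14e-06 by limma). Replicate 2 was lower by 1.79 and 2.02 where the title gives vehicle, and by 0.42 and 0.57 where it gives DHT, so all 4 pairs ran the same way and differed in size. The call was kept when any 1 of the 8 arrays was left out.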

How the results depend on the processing

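Having 2 arrays per title group limits the precision of every difference by title. With the replicate block, probes called went from 83 to 974 for DHT in parental-titled arrays, from 105 to 1037 in siFoxA1-titled arrays, and from 557 to 3470 and 534 to 3361 for the siFoxA1 titles of the DEX set with vehicle and with DEX. Of the members the block added 7 calls and took none away. Requiring detection on all 8 arrays, which tests fewer probes, gave 44 and 60 calls for DHT in parental-titled and siFoxA1-titled arrays, and median scaling gave 158 for the latter; the cause was not tested. Leaving out 1 array gave 6 to 57 and 8 to 96 calls for DHT, 184 to 461 and 153 to 391 for the siFoxA1 titles of the DEX set, 1046 to 1272 and 2692 to 3143 by replicate number, and 457 to 600 and 296 to 778 for the interactions. Contrasts with 0 calls by limma stayed at 0 when any 1 array was left out (for the siFoxA1 titles of the DHT set 215 and 252 probes had an unadjusted p under 0.05, for DEX 169 and 161; with the block DEX also had 0). Of the members' called differences without 1 array, 67 stayed called and 13 did not; 4 of 352 uncalled ones became called. No called difference of a member changed direction under the alternatives run. Signal over background limits OPRK1, which was detected on 4 arrays, and DDC on replicate 2 of vehicle siFoxA1 in the DEX set.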
